A study of Schizosaccharomyces pombe with 2 samples.

Results

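RNA of fission yeast (Schizosaccharomyces pombe) cells that lack hip1 was compared with wild-type RNA on 1 of the 2 two-colour tiling arrays of the series. The members are all 43993 non-control probes of the array labelled ∆hip1, each placed by the chromosome, start and end in the file, with its strand read from the order of its coordinates. Cy5, the red dye, labelled the hip1 deletion RNA, and Cy3, the green dye, labelled the wild-type RNA. Both cultures grew exponentially in rich medium at 30 °C, and ribosomal RNA was depleted before labelling. The other array compared asf1-1 cells with wild type, and its values are given beside those of the hip1 deletion at single loci. There was 1 array per mutant with no dye swap, so no difference has a replicate check and no test was run. The ratios of both arrays may share a wild-type extract, which the labels do not state. Genotypes beyond the deletion, and whether other alleles are common to the strains, cannot be read from the labels.

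Hip1 is a subunit of HIRA, a histone chaperone that deposits histones H3 and H4 on DNA outside replication. Asf1 hands H3-H4 dimers to HIRA and other assembly factors. In fission yeast HIRA is known for silencing of heterochromatin, for repression of Tf2 retrotransposons, and for suppressing cryptic and antisense transcripts. Retrotransposons of this family are flanked by long terminal repeats and exist in several nearly identical copies, so a probe inside one also reads RNA of the other copies.

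The probes are 60 bases long and follow each other every 50 bp on alternate strands, so each strand is read every 100 bp. Most lie in 1 long block of chromosome 2, from 1000011 to 3049820. Smaller blocks lie on chromosome 1 (2195400 to 2200359), at the right of chromosome 2 (4491601 to 4541560), on chromosome 3 (1 to 49970, 1724400 to 1727359 and 1838900 to 1840859), and on a sequence that the file numbers 4 (1 to 41210). Positions are those of the array file, and the sources used here do not give their build. If the file listed probes by the strand of the labelled cDNA, which the sources used here do not settle, the strands, the 5′ and 3′ edges of segments, and the starts and ends of transcribed units would all change places. As no gene is named beside the probes, loci are called by strand and position, and the RNA of hip1 itself was not examined. Of all probes, 88.8% were well above background in the hip1 deletion channel and 78.9% in the wild-type channel, and no spot was saturated. Ratios are log2 hip1 deletion over wild type, and each value of a window or segment is the median over its probes, with the SD over those probes. That SD covers differences between spots and not between cultures.

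Without Hip1, RNA was higher at many more places than it was lower. In windows of 1 kb on 1 strand, 580 of 4337 were at least 2-fold higher in the hip1 deletion (13.4% of all windows) and 179 were at least 2-fold lower (4.13%). The excess was larger for the strongest differences, with 158 windows at least 4-fold higher (3.64%) against 6 at least 4-fold lower (0.138%). Both strands took part to a like extent. On the plus strand 280 of 2174 windows were higher and 88 lower, and on the minus strand 300 of 2163 were higher and 91 lower. The higher windows had a median log2 signal of 10.2 in the hip1 deletion and 8.40 in wild type, and the lower windows had 8.48 in the hip1 deletion and 9.98 in wild type. Signals have a floor: the lowest wild-type log2 signal of a probe well above background was 6.98. Dim RNA thus has little room to read lower, above all 4-fold lower, while it can read higher without this limit. The part of the floor in the excess of higher windows was not tested. Loess sets the middle of the array near 0, so a change shared by all RNA would not show in these counts. With the scanner's own log ratio in place of these values, 901 windows were higher and 516 lower. Higher windows then made up 63.6% of those past 2-fold, against 76.4% before. The scanner's ratio differs in background correction as well as in normalization, so these counts do not show what loess alone does.

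Higher windows were mostly dim in wild type. To keep the spots of the ratio out of the choice, windows were put in 4 bins of equal size by the wild-type signal of the asf1-1 array. In the dimmest bin 18.3% were at least 2-fold higher and 0.553% lower. The next bin, with wild-type log2 signals of 8.22 to 9.89, held most of the higher windows, 292 (26.9%), and 6.64% of it was lower. In the bin above it 6.55% were higher and 8.12% lower, and in the brightest bin 1.66% were higher and 1.20% lower. Should 1 wild-type extract have gone on both arrays, its deviations enter both the bins and the ratios. A probe was used if well above background in either channel, so one below that in wild type entered only through the hip1 deletion channel. This filter favours higher over lower windows in the dim bins, and its part in the split was not tested. At 324 of the 580 higher windows some but not all probes were well above background in wild type.

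**Figure D1:**
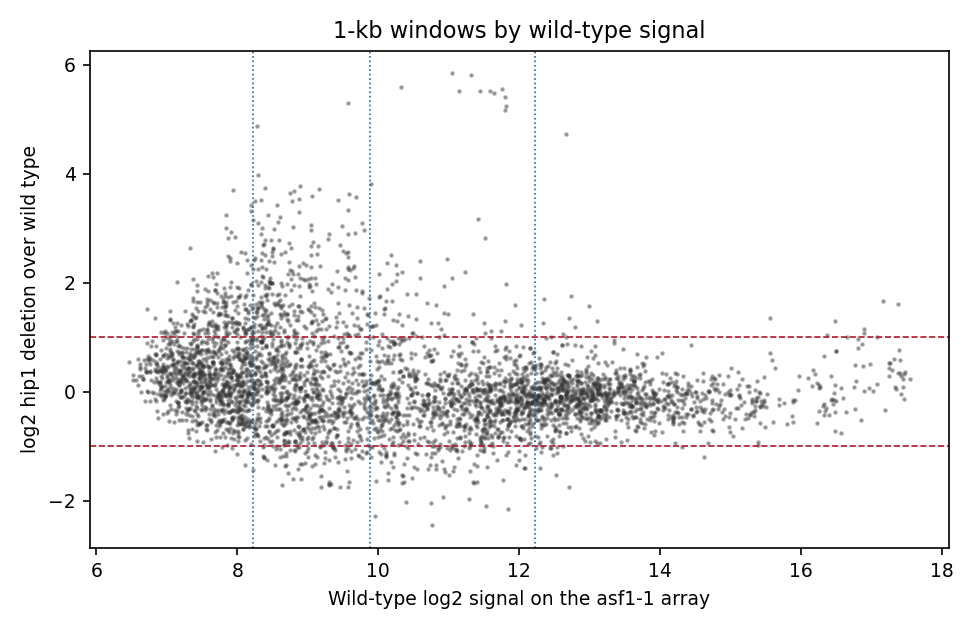
Each point is a 1-kb window of 1 strand, with its wild-type log2 signal on the asf1-1 array on the x axis and its log2 ratio of hip1 deletion over wild type on the y axis. Dashed lines mark 2-fold and dotted lines part the 4 bins. Points above the upper dashed line crowd below a wild-type signal of about 9.89, and 18 of 1084 windows of the brightest bin lie there.

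Of the 5 segments with a median at least 16-fold higher, the longest were a pair of 5 kb on chromosome 2. On the minus strand from 1814111 to 1819070, all 50 probes were at least 2-fold higher. Their median log2 signal was 17.62 in the hip1 deletion and 12.12 in wild type, a log2 ratio of 5.49 ± 0.50, and single probes ran from 3.68 to 6.74. On the plus strand from 1966561 to 1971620, 50 of 51 probes were at least 2-fold higher. Here the median signal was 17.62 in the hip1 deletion and 12.16 in wild type, a ratio of 5.48 ± 0.85. The segments are of nearly the same length, 4960 and 5060 bp. Wild-type RNA was present at both, with 50 of 50 and 50 of 51 probes well above background. In asf1-1 the same probes had 5.74 ± 0.64 and 5.81 ± 0.98.

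The difference was nearly even along both loci. With each locus cut into 3 equal stretches, the one nearest the 5′ edge had a ratio of 5.79 ± 0.40 at the minus-strand locus and of 5.81 ± 1.46 at the plus-strand locus, where 1 probe at the edge was at 0.10. The middle stretch had 5.29 ± 0.24 and 5.36 ± 0.17, and the one nearest the 3′ edge had 5.49 ± 0.56 and 5.53 ± 0.23. The rise ended at the edges. The 3 probes on either side had medians of -1.21 and -0.24 at the minus-strand locus and of -0.53 and 0.32 at the plus-strand locus. Past the 3′ edge of the minus-strand locus the same strand was lower, in a segment from 1813011 to 1814070 with -1.22 ± 0.10. All 11 of its probes were at least 2-fold lower. The opposite strand was dim, with log2 signals of 7.62 in the hip1 deletion and 7.38 in wild type at the minus-strand locus. Its ratio there was 0.44 ± 0.56, and at the plus-strand locus it was 0.29 ± 0.51. The gene table of assembly ASM294v3 names the retrotransposons Tf2-9, Tf2-10 and Tf2-11 on chromosome II, but it is not known to share the array's build, and no probe was assigned to them.

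**Figure D2:**
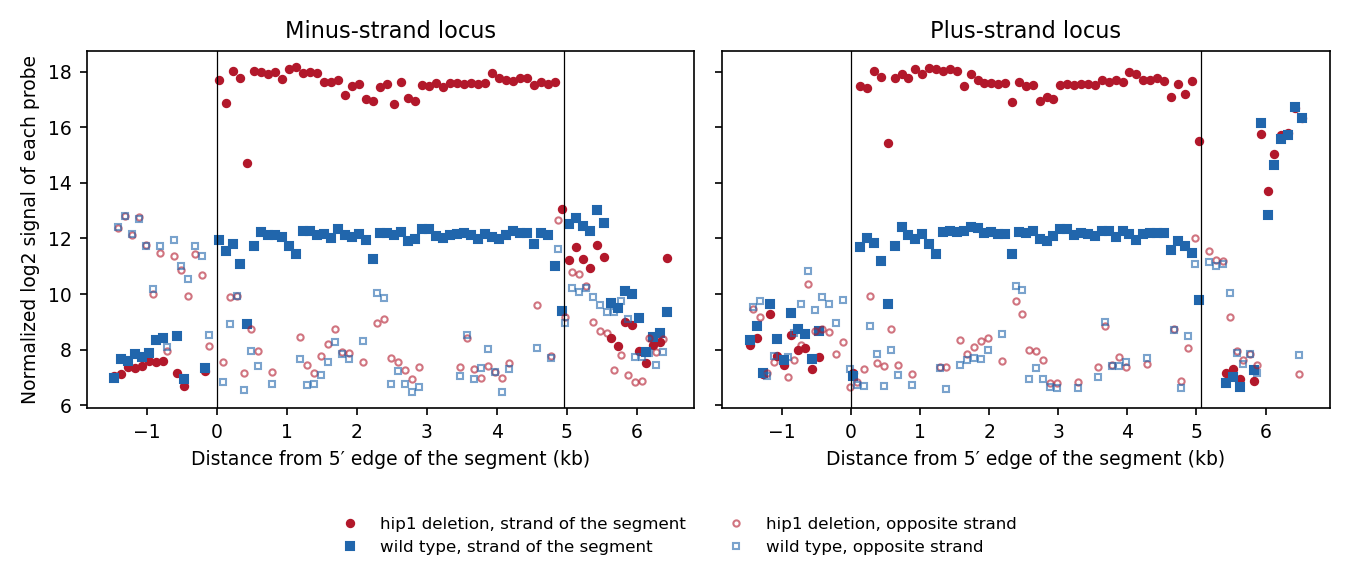
Normalized log2 signal of each probe at the minus-strand locus (left) and the plus-strand locus (right), against the distance in kb from the 5′ edge of the segment; vertical lines mark its edges. Filled symbols are the strand of the segment and open symbols the opposite strand, with the hip1 deletion as circles and wild type as squares. Inside the edges the filled circles lie near 17.6 and the filled squares near 12.1, while most open symbols of both channels lie below 10.

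Other loci with ratios of this size were shorter. On the minus strand of chromosome 2 the window from 2573011 to 2573970 had a log2 signal of 15.14 in the hip1 deletion and 9.48 in wild type, a ratio of 5.30 ± 0.59 over 10 probes. It lies in a segment from 2572811 to 2574670 whose median was 4.33, and whose opposite strand was at 0.09. A 16-fold difference was reached by 14 windows (0.323% of windows). Of these, 11 lie in the 5-kb loci and 1 is the window at 2573011. The remaining ones, named here after their values were seen, are the plus-strand window from 3025361 to 3026020 with 4.88 ± 2.00 and the minus-strand window from 2662011 to 2662970 with 4.73 ± 2.09. At 2662011 the RNA was abundant, with log2 signals of 16.73 in the hip1 deletion and 11.84 in wild type.

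Segments were then drawn with edges placed at probes. A segment is a stretch in which the running median of 5 neighbouring probes stayed at or past 2-fold for at least 5 probes. The running median smooths over neighbours, so an edge can be off by a few probes. There were 453 higher segments, covering 520 kb of 1 strand or the other, and 182 lower segments, covering 158 kb. The higher segments held 13.8% and the lower segments 4.04% of all probes used. Most were short: the median was 960 bp for higher and 660 bp for lower segments, and 44 higher but 7 lower segments were longer than 2 kb. Of the higher segments 220 lay on the plus and 233 on the minus strand. At 116 higher segments the median ratio was at least 4-fold and at 19 at least 8-fold, against 4 and 0 of the lower segments.

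Where the higher segments lie relative to transcripts of wild type was read from units of wild-type transcription. A unit is a stretch of at least 600 bp on 1 strand whose running median in the wild-type channel of the asf1-1 array lies in the upper 40% of probe signals. There were 706 such units, 350 on the plus and 356 on the minus strand, with a median length of 1660 bp. Of the 453 higher segments, 345 had at least 50% of their probes on the strand opposite a unit and less than 50% inside a unit of their own strand. A further 29 lay mostly inside a unit of their own strand, 4 mostly in both and 75 mostly outside units of both strands. Of all probes used, 31.7% lay opposite a unit alone, 36.6% inside a unit of their own strand alone, 2.28% in both and 29.4% outside units of both strands.

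Probes that lie opposite a unit, and in no unit of their own strand, had a median log2 ratio of 0.54 with an SD over probes of 1.07. Of these 12284 probes, 33.1% were at least 2-fold higher and 4.62% lower, against 15.7% and 7.82% of all 38744 probes used. They make up 66.9% of all probes past 2-fold higher. Probes inside a unit of their own strand had a median of -0.13, with 3.05% higher and 5.49% lower. Outside units of both strands the median was -0.15, and 13.3% were higher and 14.3% lower, so that this place held 53.9% of all probes past 2-fold lower. Probes opposite a unit are dim in wild type by the way units were drawn, with a median wild-type log2 signal of 8.14, and dim windows were more often higher over the whole array. Those not well above background in wild type were used only where the hip1 deletion channel was.

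Along the units, antisense RNA was higher mainly near the start. Opposite the first 600 bp of units the median log2 ratio was 0.72, with 39.2% of 3694 probes at least 2-fold higher. Opposite the last 600 bp it was 0.08, with 15.2% of 3280 probes higher, close to the 15.7% of all probes. Wild-type signals of the opposite strand were much alike at both ends, 8.33 and 8.45. Among opposite-strand probes with a wild-type signal between 7 and 9, a choice made after seeing the data, the medians were 0.85 at the start and 0.08 at the end. On the strand of the unit itself, the first 600 bp had -0.29 and the last 600 bp 0.11, which turned to -0.54 when the array was centred on its median in place of loess. Upstream of the start, the 200 bp before it had -0.46 on the strand of the unit and 0.41 on the opposite strand.

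**Figure D3:**
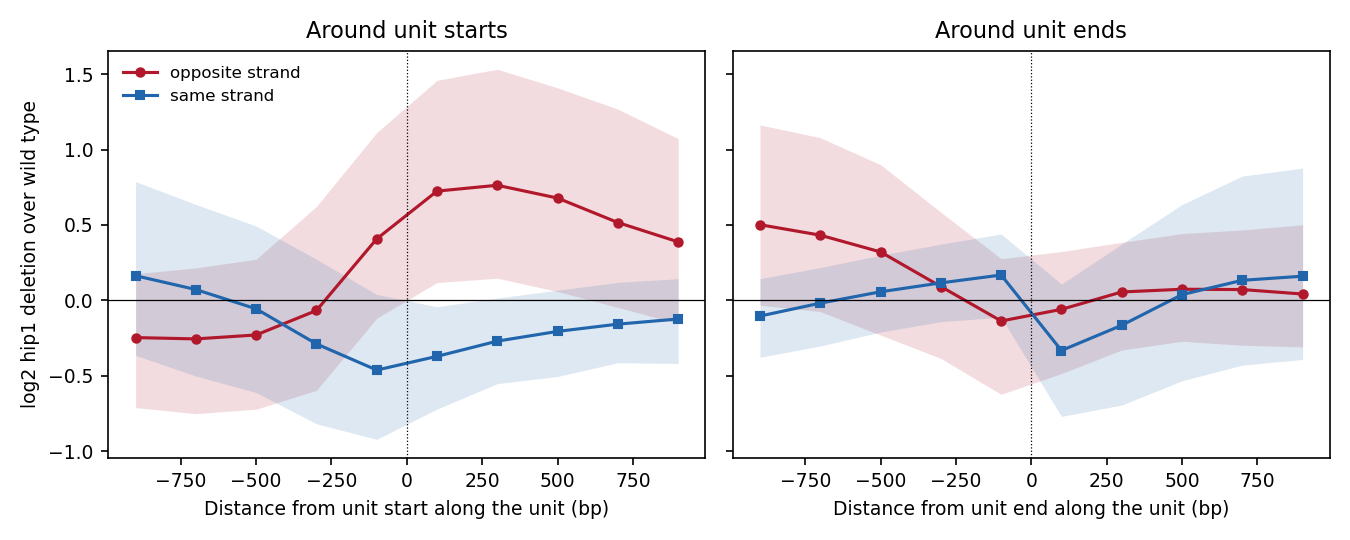
Median log2 ratio of hip1 deletion over wild type in bins of 200 bp, against the distance in bp from the start (left) and the end (right) of wild-type units, with negative distances upstream. Circles are the opposite strand and squares the strand of the unit, and the shaded bands run from the lower to the upper quartile over probes. The opposite strand is highest just inside the start, at 0.76, and lies at -0.14 in the last bin before the end.

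Units that were weakly transcribed in wild type had antisense RNA higher more often than strongly transcribed ones. Over the 644 units with at least 5 opposite-strand probes, the median antisense ratio was 0.50, and at 172 units (26.7%) it was at least 2-fold higher and at 6 at least 2-fold lower. On their own strand 11 of these units were at least 2-fold higher and 5 lower, with a median of -0.11. Among the 215 units with the lowest wild-type signal, 85 (39.5%) had antisense RNA at least 2-fold higher, with a median of 0.77. Among the middle 214 units 67 (31.3%) did, with a median of 0.66, and among the 215 brightest 20 (9.30%), with a median of 0.26. Wild-type log2 signals of the opposite strand also differed, with 8.52 for the dimmest units, 8.16 for the middle and 7.95 for the brightest. Over all windows, 18.3% of the dimmest bin were higher, against 26.9% of the bin above it. The part of this difference in antisense signal in the trend was not tested. Unit length made little difference to the count, with 27.0%, 27.7% and 25.4% of the short, middle and long units.

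The strand opposite a higher window was seldom higher too, and it was mostly bright in wild type, where fewer windows are higher. Over the 580 higher windows, the opposite strand had a median log2 ratio of -0.28, against 0.01 for all windows. It was also at least 2-fold higher for 12 of the 580, which form 6 pairs, and at least 2-fold lower for 40. Of all windows 13.4% were higher and 4.13% lower. The median wild-type log2 signal was 8.40 on the higher strand and 11.94 on the opposite strand, read by different probes.

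Of the 6 pairs that were higher on both strands, 3 lie in the right block of chromosome 2. From 4500001 the plus strand had 1.28 ± 0.21 and its minus strand 2.17 ± 0.62. From 4505001 they had 1.13 ± 2.23 and 1.76 ± 0.83, and from 4501001 they had 1.56 ± 0.57 and 1.01 ± 0.31. In the long block the plus-strand window from 1479061 had 3.0 ± 1.38 with 1.11 ± 0.16 on the minus strand. The windows from 1215061 and 1951061 had plus-strand ratios of 1.38 ± 0.19 and 1.03 ± 0.44, with 1.11 ± 0.42 and 2.44 ± 0.18 on the minus strand.

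Some higher segments faced a lower segment on the other strand. With any shared base counted, there were 77 such pairs, with 75 higher and 76 of the 182 lower segments. By this count 41.8% of lower segments overlapped a higher one on the opposite strand. Some pairs shared as little as 10 bp, less than 1 probe, and no background was drawn for this share of segments. Of the 1697 probes opposite lower segments 29.4% lay in higher segments, against 13.8% of all probes used, and 10.8% lay in other lower segments, against 4.04% of all. Lower segments thus lay opposite both higher and lower ones more often than the background. Of the 5313 probes opposite higher segments 8.58% lay in lower ones and 2.45% in higher ones.

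The longest shared stretch, 2660 bp, was at a plus-strand segment from 2598661 to 2602420. Its median signal was 11.12 in the hip1 deletion and 8.16 in wild type, a log2 ratio of 2.87 ± 0.68 over 38 probes. The opposite strand had 9.32 in the hip1 deletion and 10.72 in wild type, a ratio of -1.42 ± 0.70. The lower segment there, from 2599711 to 2602370 on the minus strand, had -1.56 ± 0.56. From the 5′ edge on, the 3 stretches of the segment had 2.36, 3.10 and 3.03, while the opposite strand had -0.56, -1.45 and -2.08.

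The 2 segments with the next longest shared stretches had a like fall of the opposite strand toward the 3′ edge. All 3 were picked for facing a lower segment, so low values there come with the choice. The fall is not particular to them. At each of the 12 longest higher segments the opposite strand was lower in the last than in the first stretch. It had -0.11, -0.58 and -0.77 at the segment from 2195450, and -0.53, -0.94 and -0.66 at that from 2998311. At the minus-strand segment from 2167811 to 2171370 the ratio was 3.28 ± 0.96 over 36 probes, with a dip to 1.88 in the middle stretch between 3.79 and 3.48. Its opposite strand had -0.74, -1.31 and -1.59 along the same direction. Wild-type RNA was well above background at 26 of the 36 probes, so the ratios of the other 10 are less certain. At the plus-strand segment from 1481661 to 1486720 the 3 stretches had 1.45, 1.71 and 3.19, with -0.68, -0.99 and -1.16 on the opposite strand. Its median was 1.88 ± 0.88, and 3.27 by the scanner log ratio, and 35 of its 51 probes were well above background in wild type. None of its probes lay in a unit or opposite one.

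**Figure D4:**
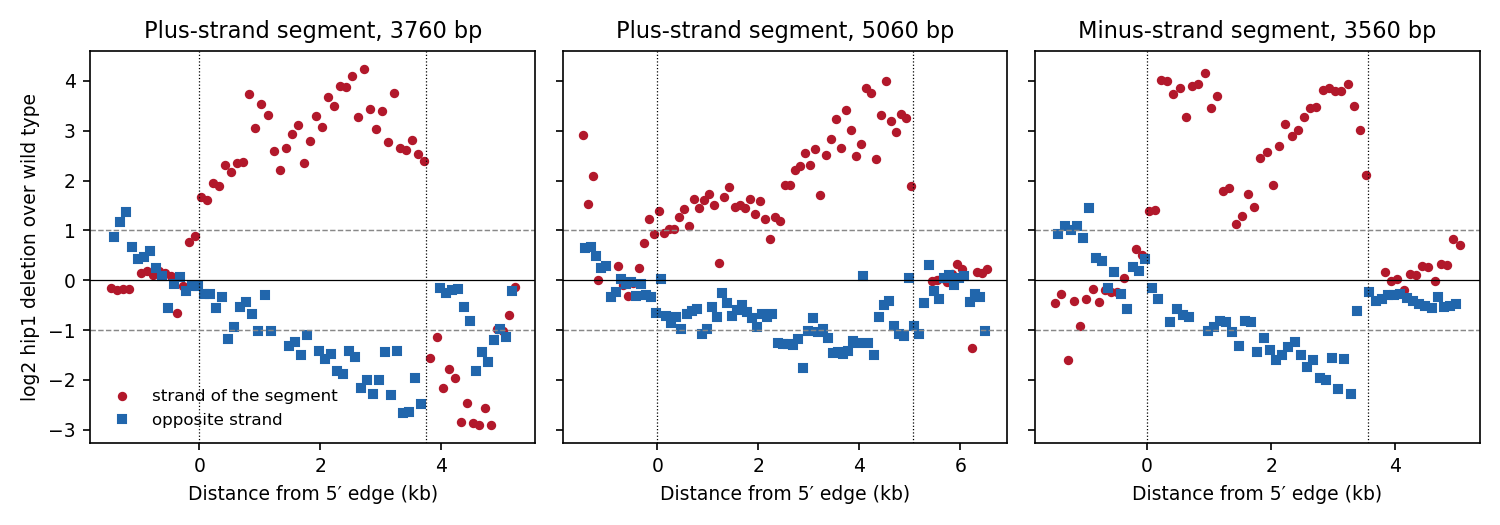
Log2 ratio of hip1 deletion over wild type of each probe, against the distance in kb from the 5′ edge of the 3 higher segments that share the longest stretches with a lower one, with edges dotted. Circles are the strand of the segment and squares the opposite strand, and dashed lines mark 2-fold. Inside each segment the circles lie mostly above 1, while the squares have medians of -0.56, -0.68 and -0.74 (left to right) in the stretch at the 5′ edge and of -2.08, -1.16 and -1.59 in the last stretch.

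Among the remaining long higher segments, 5 lay almost wholly antisense to wild-type units. On the minus strand of the chromosome 1 block, 2195450 to 2199509 had 2.5 ± 0.97, with 10.75 in the hip1 deletion and 8.87 in wild type, and it reaches the edge of the block. Plus-strand 1003661 to 1007420 had 2.46 ± 0.76, and minus-strand 2398511 to 2402770 had 1.95 ± 0.67. Plus-strand 1978861 to 1982520 had 1.55 ± 0.71, and minus-strand 2998311 to 3001670 had 1.41 ± 0.40. The lowest share of probes opposite a unit among these 5 was 89.2%. By the scanner log ratio the segment at 2195450 had 3.20, that at 2398511 had 2.77 and that at 1978861 had 2.39. Minus-strand 1949611 to 1952870 instead had 50.0% of its probes in a unit of its own strand. Its signal was 12.98 in the hip1 deletion and 10.45 in wild type, a ratio of 2.54 ± 0.50 that was 2.15, 2.5 and 2.97 from the 5′ edge on. In asf1-1 it had 4.04 ± 0.62.

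RNA that read lower without Hip1 came from short stretches of middling level. Dim RNA has little room above the signal floor to read 2-fold lower, and the part of this limit in the level was not tested. The lowest window, on the plus strand from 2603061 to 2603920, had 8.62 in the hip1 deletion and 10.58 in wild type, with a median ratio of -2.45 ± 1.1. It lies just downstream of the plus-strand segment from 2598661, in a lower segment from 2602461 to 2603620 with -2.30 ± 0.69. The next windows were minus-strand 2741011 to 2741770 with -2.28 ± 1.00, plus-strand 2903061 to 2904020 with -2.15 ± 0.91 and minus-strand 1779011 to 1779970 with -2.09 ± 1.07. At 2741011 the signal was 7.03 in the hip1 deletion, near the floor of the array, and 9.58 in wild type. In asf1-1 these 4 windows had -2.52 ± 1.05 at 2603061, -0.23 ± 0.58 at 2741011, -0.63 ± 1.19 at 2903061 and -1.36 ± 0.99 at 1779011. The opposite strand of the lowest windows went either way, with -1.53 ± 0.87 at 2741011 and 3.42 ± 0.54 at the minus-strand window from 2601011, itself at -1.94 ± 0.36.

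The longest lower segments were minus-strand 2357111 to 2360370 with -1.49 ± 0.45 and minus-strand 2302211 to 2305370 with -1.49 ± 0.35. Their opposite strands had -0.42 ± 0.75 and -0.94 ± 0.63. Plus-strand 1779761 to 1782820 had -1.26 ± 0.47, and its opposite strand had 2.29 ± 2.87. That opposite strand went both ways, with a lower segment from 1778811 to 1780570 at -1.93 and a higher one from 1781111 to 1783470 at 2.64. Minus-strand 2901411 to 2903870 had -1.79 ± 0.84 with -1.64 ± 1.83 on the opposite strand. Minus-strand 1902011 to 1904170 had -1.06 ± 0.21 with 1.14 ± 0.55 on the opposite strand. By the scanner log ratio the segment at 2901411 had -2.98, that at 2357111 had -2.08 and that at 1779761 had -1.87. Of the 182 lower segments 4 reached 4-fold, all in the long block, against 116 of the 453 higher ones.

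The small blocks differed by strand. On chromosome 1 the median log2 ratio was 2.33 ± 1.20 over 47 minus-strand probes and -0.53 ± 0.67 over 43 plus-strand probes. On chromosome 3, plus-strand probes of the block at 1838900 had 3.49 ± 1.56 and minus-strand probes -0.22 ± 0.68. The block at 1724400 showed 1.24 ± 0.93 on its plus and -0.09 ± 0.33 on its minus strand, and asf1-1 had 2.79 on that plus strand. In the long block both strands were centred, at 0.02 ± 1.00 on the minus and 0.00 ± 0.98 on the plus strand.

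At the right of chromosome 2 the medians were 0.63 ± 0.87 on the minus and 0.32 ± 1.05 on the plus strand. The plus-strand median ran from 0 to 0.59 over the alternative settings. Of the probes used, 73.0% on the minus and 76.2% on the plus strand were well above background in wild type, against 88.0% and 88.3% in the long block. Past 2-fold, 13 of 47 windows on the minus strand (27.7%) and 7 of 50 on the plus strand (14%) were higher, and 0 were lower. Of all windows 13.4% were higher and 4.13% lower, so the plus-strand share of higher windows was near that of the whole array. The minus-strand median was 1.20 in the first 10 kb and 0.91 in the next, and between 0.51 and 0.57 in the last 3 stretches. On the left of chromosome 3 the strands parted, with 0.35 ± 1.14 on the minus and -0.63 ± 0.98 on the plus strand. There 10 of 49 minus-strand windows were higher, and 14 of 49 plus-strand windows (28.6%) were lower. In the outer 20 kb the plus strand had -1.06 and -1.08, opposite a minus strand with wild-type signals of 17.1 and 17.2. In the inner 10 kb the minus strand had 1.12 ± 1.77, and it holds the segment from 41911 to 46870 with 2.25 ± 1.41, or 3.13 by the scanner log ratio. On the sequence numbered 4, 8 of 38 minus-strand windows and 0 of 38 plus-strand windows were higher.

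**Figure D5:**
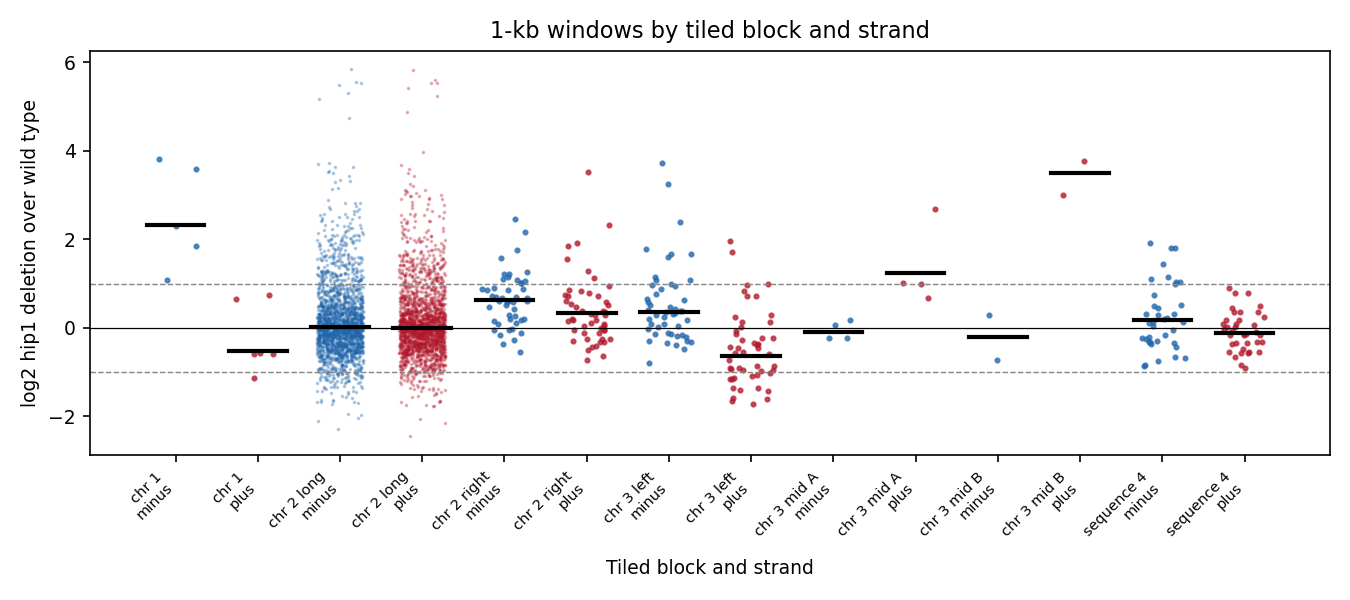
Log2 ratio of hip1 deletion over wild type of each 1-kb window (points), by tiled block and strand, with the median over probes as a black bar and 2-fold as dashed lines. The chromosome 3 blocks from 1724400 and 1838900 are labelled mid A and mid B. The medians are 2.33 for the minus strand of chromosome 1 and 3.49 for the plus strand of mid B, while both strands of the long block have theirs near 0.

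Along the long block the higher windows were spread over its whole length. In stretches of 100 kb, the share of windows at least 2-fold higher ran from 6.56% (12 of 183, 1600001 to 1700000) to 18.0% (36 of 200, 1900001 to 2000000). The stretch with the most held 25 plus-strand and 11 minus-strand windows, among them the 6 of the plus-strand 5-kb locus. The stretch with the fewest held 2 and 10, with 12 lower windows and a median wild-type signal of 9.11.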

How the data were processed

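RNA from hip1 deletion and wild-type cells was hybridised to 1 array and from asf1-1 and wild-type cells to another, both on 1 slide. Spot intensities, log10 ratios of red over green and their p-values were deposited by the authors as written by Agilent Feature Extraction 10.1.1.1, per the file headers. The deposited table of the whole series held the scanner's log ratios with 0 in place of 43.1% of them, as set against the array file. Here background was corrected on the deposited median intensities with normexp (offset 50) and each array was normalized with loess in limma 3.58.1 (R 4.3.3), with control and outlier spots at weight 0. Single-channel log2 signals were made after Aquantile. Of the 43993 deposited probe intensities, 38744 were used: non-outlier spots well above background in at least 1 channel. Windows were 1 kb of 1 strand with at least 3 probes, and 2-fold was the threshold. Segments ended at gaps over 300 bp. Loess centres each array, and raw median intensities were 773.5 in the hip1 deletion and 366 in wild type. There was no replicate, so no test was run, and the number of arrays limits the precision.

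Loci named by position are the top 12 and bottom 12 windows by ratio (5 probes or more, 80% or more on 1 side), the 12 longest higher and 6 longest lower segments, and the 6 windows higher on both strands. The members, lists and thresholds were chosen with earlier results of these data known. The segmentation and window counts were tested on simulated data with independent noise and differences of at least 4-fold. That run does not show how well differences near 2-fold are counted. The alternatives were other background and ratio settings, filters, thresholds, window sizes, even-numbered or odd-numbered probes and unit definitions.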

Additional observations from a re-analysis of the deposited data

Results flagged for a closer look

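In the plus-strand window of chromosome 3 that spans 5061 to 6020, the hip1 deletion and asf1-1 lay on opposite sides of wild type. The log2 ratio was -1.16 ± 0.40 over 9 probes in the hip1 deletion and 2.02 ± 0.97 in asf1-1, a difference of -3.18. The log2 signal was 7.49 in the hip1 deletion and 8.51 in wild type on the same array, and it was 11.53 in asf1-1 and 9.72 in wild type on the other array. The minus strand of the window was bright, with log2 signals of 15.61 in the hip1 deletion and 15.24 in wild type, a ratio of 0.44 ± 0.48. In the hip1 deletion the plus strand of the whole stretch from 1 to 10000 had a median of -1.06, so the low value there is not particular to this window. With 1 array per mutant the difference was not tested.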

How the results depend on the processing

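No paired analysis was possible because the hip1 deletion has a single array. None of the 48 named windows and segments changed sign under the alternatives run for them. Higher and lower windows numbered 901 and 516 by the scanner's log ratio, 925 and 428 after median centring, 966 and 596 at 1.5-fold, 158 and 6 at 4-fold, and 239 and 45 in 2-kb windows. Lower windows numbered 509 in the values of the series table. Higher windows made up 62.1% of those past the threshold by the series table, 63.6% by the scanner's log ratio, 61.8% at 1.5-fold and 96.3% at 4-fold. Lower segments numbered 418 by the scanner's log ratio, 417 by the series table and 353 after median centring, 488 at 1.5-fold, and 299 with at least 3 probes. At 4-fold 146 segments were higher and 8 lower. Pairs of windows higher on both strands numbered 24 by the scanner's log ratio, 16 by the series table and 17 after median centring, and 39 at 1.5-fold. The median of the opposite strand of higher windows was 0 by the series table and -0.75 after median centring. Opposite the first 600 bp of units the median was 1.06 by the scanner's log ratio, 1.01 by the series table and 1.20 after median centring, which also gave 0.39 opposite the last 600 bp, -0.85 in the first and -0.54 in the last 600 bp on the strand of the unit. The start minus the end on the opposite strand was 1.03 by the scanner's values and 1.01 by the series table. Without the filter on dim probes the medians opposite the first and last 600 bp were 0.57 and -0.01. With probes well above background in both channels they were 0.80 and -0.01. The minus strand of the chromosome 3 block from 1724400 had -0.43 with median centring. The cause of these shifts was not tested. Of 378 values of 48 named windows and segments, 321 stayed within their spread over probes and 57 moved beyond it, and the plus-strand window from 1966061 to 1967020 ranged from 0.15 to 5.78. Of the probes used, dim ones limit the precision, since 78.9% of all probes were well above background in wild type.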
